A study of Mus musculus with 4 samples.

Results

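The genes described here are 43 genes of the unfolded protein response and of protein quality control in the endoplasmic reticulum (ER): the stress sensors with Xbp1, ER chaperones, ER J proteins, disulfide isomerases, the ER-associated degradation machinery, and translocation and UFM1 genes. They were chosen by name from the 34745 gene rows of the deposited table; 42 were found under the listed symbol and Selenos by its gene identifier, under the older symbol Vimp. RNA was sequenced from T helper 17 (Th17) cells, the interleukin 17-producing CD4+ T cells, which were grown for 3 days from naive spleen CD4+ T cells of C57BL/6 mice. The genotypes were compared with 2 libraries each: wild type (WT 13 and WT 15, named by title, though the cell type label of the latter begins with 14), and Setd2-CD4 cre (22 and 24, the mutant libraries), in which Cre made from Cd4 sequences acts in T cells from the thymic CD4+ CD8+ stage onward. Both genotypes had the same strain, culture condition and time. Not given in these sources: the exons of Setd2 that are removed, the age of the mice, and whether each library is a separate animal. The p-values therefore cover spread among these libraries only, which may be technical in origin.

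Setd2 encodes the enzyme that trimethylates lysine 36 of histone H3. Its whole-gene level was 184 and 176 CPM (counts scaled to a common library size of 1e+06 with TMM factors) in WT 13 and 15, and 144 and 153 CPM in Setd2-CD4 cre 22 and 24. The mutant libraries were lower without overlap, by a log2 fold change of -0.28 (SE 0.10), which did not pass the threshold (adjusted p = 0.0748; edgeR quasi-likelihood test with Benjamini-Hochberg adjustment). The difference passed with upper-quartile factors (0.0242), library totals (0.0216) and cyclic loess with limma-voom (0.0188). It also passed with limma on the deposited FPKM with a pseudocount of 1 (0.0439) or 0.1 (0.0442). It passed without mutant 24 as well, where the replicate spread comes from the WT pair alone. It did not pass with DESeq2 (0.140), with either change of the expression filter or with any other library left out. A count over the whole gene does not show whether an exon is missing, so genotypes follow the labels. Libraries held 11007343 to 12518415 counts. Cd4 stood at 940.2 to 1139 CPM and Il17a, the signature Th17 cytokine, at 163 to 587 CPM, so the cells carried defining transcripts of their label. Of 14 B cell markers tested, 12 were higher in Setd2-CD4 cre and none lower. The 14 summed to 261 and 219 CPM in WT against 752 and 536 CPM in Setd2-CD4 cre. Ighm made up most of each sum, at 208 and 173 CPM in WT against 432 and 359 CPM in Setd2-CD4 cre. The part of these B cell transcripts in the results below was not tested. In bulk RNA, fewer cells of a type and less RNA per cell cannot be told apart.

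The ER is where secreted and membrane proteins are folded. Unfolded protein in its lumen is sensed by 3 membrane proteins: IRE1 (Ern1), which splices Xbp1 mRNA to make an active transcription factor, PERK (Eif2ak3), which phosphorylates the initiation factor eIF2 and lowers translation, and ATF6 (Atf6, with its relative Atf6b), which is cut in the Golgi to release a transcription factor. Their outputs include chaperones such as BiP (Hspa5), oxidoreductases that pair cysteines, and ER-associated degradation (ERAD), which pulls failed proteins back to the cytosol for the proteasome. T cells that secrete cytokines use the same machinery.

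Sequence elements that ATF6 and XBP1 are known to use mark several of these genes, and the RefSeq promoter windows (GRCm38.p6, 250 bases before to 50 after each start) show where they lie. The ER stress response element (ERSE) was searched as CCAAT and CCACG held 9 bases apart, ERSE-II as ATTGG and CCACG held 1 base apart, and the core of the unfolded protein response element (UPRE) as TGACGTGG, on both strands and without mismatches. Below, each sequence is printed 5′ to 3′ along its gene's own strand, with the fixed bases of the element in capitals. Where the element runs on the opposite strand the capitals read CGTGG then ATTGG. Hsp90b1, Calr, Canx, Derl3, Syvn1 and Herpud1 are shown because their RNA rose; Hspa5, Dnajc3, Creld2, Pdia6 and Ero1lb because they carry the same element and did not pass the test. Hspa5 is shown as the element alone, since GENCODE places it in an exon.
Hsp90b1, chr10:86705513-86705676, minus strand, ERSE on each strand: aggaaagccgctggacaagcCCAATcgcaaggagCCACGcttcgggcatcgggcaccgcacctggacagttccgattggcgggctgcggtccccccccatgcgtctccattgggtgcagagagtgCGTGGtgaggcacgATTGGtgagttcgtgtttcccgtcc
Calr, chr8:84847055-84847113, minus strand: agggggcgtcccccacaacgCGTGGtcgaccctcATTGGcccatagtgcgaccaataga
Canx, chr11:50325780-50325838, minus strand: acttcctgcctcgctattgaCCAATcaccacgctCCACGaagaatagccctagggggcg
Derl3, chr10:75893222-75893280, plus strand: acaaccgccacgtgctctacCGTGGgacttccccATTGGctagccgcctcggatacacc
Syvn1, chr19:6046512-6046570, plus strand: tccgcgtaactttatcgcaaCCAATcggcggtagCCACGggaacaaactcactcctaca
Herpud1, chr8:94386357-94386407, plus strand, ERSE-II: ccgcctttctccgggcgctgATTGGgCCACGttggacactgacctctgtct
Hspa5, chr2:34772025-34772043, plus strand: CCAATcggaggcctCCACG
Dnajc3, chr14:118937807-118937865, plus strand: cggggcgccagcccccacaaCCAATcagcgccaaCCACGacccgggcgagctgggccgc
Creld2, chr15:88819500-88819558, plus strand: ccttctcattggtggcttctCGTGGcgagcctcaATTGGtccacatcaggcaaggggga
Pdia6, chr12:17266471-17266529, plus strand: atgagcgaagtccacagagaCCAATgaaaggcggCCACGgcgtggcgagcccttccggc
Ero1lb, chr13:12565662-12565720, plus strand: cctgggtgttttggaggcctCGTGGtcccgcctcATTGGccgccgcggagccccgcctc

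A window was matched for 36 of the 43 genes. An ERSE was found in 10 of these 36 (27.8%), against 37 of all 27025 genes with a window (0.137%). The 37 include these 10. The element was already known as one that ATF6 and XBP1 use, so no conclusion is drawn from the contrast. ERSE-II was found in Herpud1 and Dnajb11, against 12 of all genes, and in Dnajb11 it lay 8 to 18 bases after the start. The UPRE core was found in 1 gene of the list, Vcp, against 193 of all genes (0.714%). With windows ending at the start site, the ERSE count was again 10 of 36, beside 35 of all genes, and ERSE-II was left in Herpud1 alone. The element did not separate the genes by their response: an ERSE was in 5 of the 14 genes with a window that rose, in 5 of the 19 that did not pass the test, and in neither of the 2 that fell. No test was made of these shares, and a match of letters is not evidence of binding.

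Of the 42 genes of the list that could be tested, 18 rose in Setd2-CD4 cre and 2 fell, and 22 did not pass the test (edgeR, adjusted p of at most 0.05 over all genes). Among all 12927 genes tested, 30.7% were called, 16.2% higher and 14.5% lower. The list's shares were 42.9% higher and 4.76% lower. The largest differences were in the sensors (Ern1, Eif2ak3, Atf6) and in the degradation genes (Derl3, Ubxn4, Selenos, Herpud1), and the genes that fell were Dnajc10 and Atf6b. The median log2 fold change of the list was 0.29, beside -0.01 over all genes tested, and 32 of the 42 fold changes were above 0. Both Setd2-CD4 cre libraries lay above both WT libraries for 25 of the 42 genes and below them for 4, where 34.6% and 36.1% of all tested genes did so. Summed over the list, levels were 6445 and 6459 CPM in the WT pair against 8372 and 8769 CPM in the mutant pair. With these factors all genes together summed to 954497 and 945202 CPM in WT against 1.07e+06 and 1.04e+06 CPM in the mutant pair. CPM sums of any list carry that difference in scale. As a share of all counts, the list held 0.675% and 0.683% in WT against 0.781% and 0.845% in the mutant pair. Pdia5, an isomerase, had only 5 and 4 counts in WT and 10 and 6 in the mutant libraries and was not tested.

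The number of calls moved when 1 library was left out. Fewer genes were called higher without WT 13 or without WT 15, in the list and among all genes. More were called higher without Setd2-CD4 cre 22 or without 24, again in both. With 1 library left in a group, the replicate spread comes from the other pair alone. The median fold between replicates over all tested genes was 1.10 in the WT pair and 1.17 in the mutant pair. These changes therefore do not measure how far the calls rest on either genotype. Atf6, Eif2ak3, Herpud1, Selenos, Ubxn4 and Dnajc10 were called under each of the 12 alternatives run. Scaling moved the balance of all genes: 52.7% of all calls were higher with TMM factors, 37.4% with upper-quartile factors and 32.9% with library totals. Under those 2 scalings 15 genes of the list were higher and 3 lower, and the list's median was 0.18 beside -0.12 for all genes, and 0.14 beside -0.16.

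**Figure D1:**
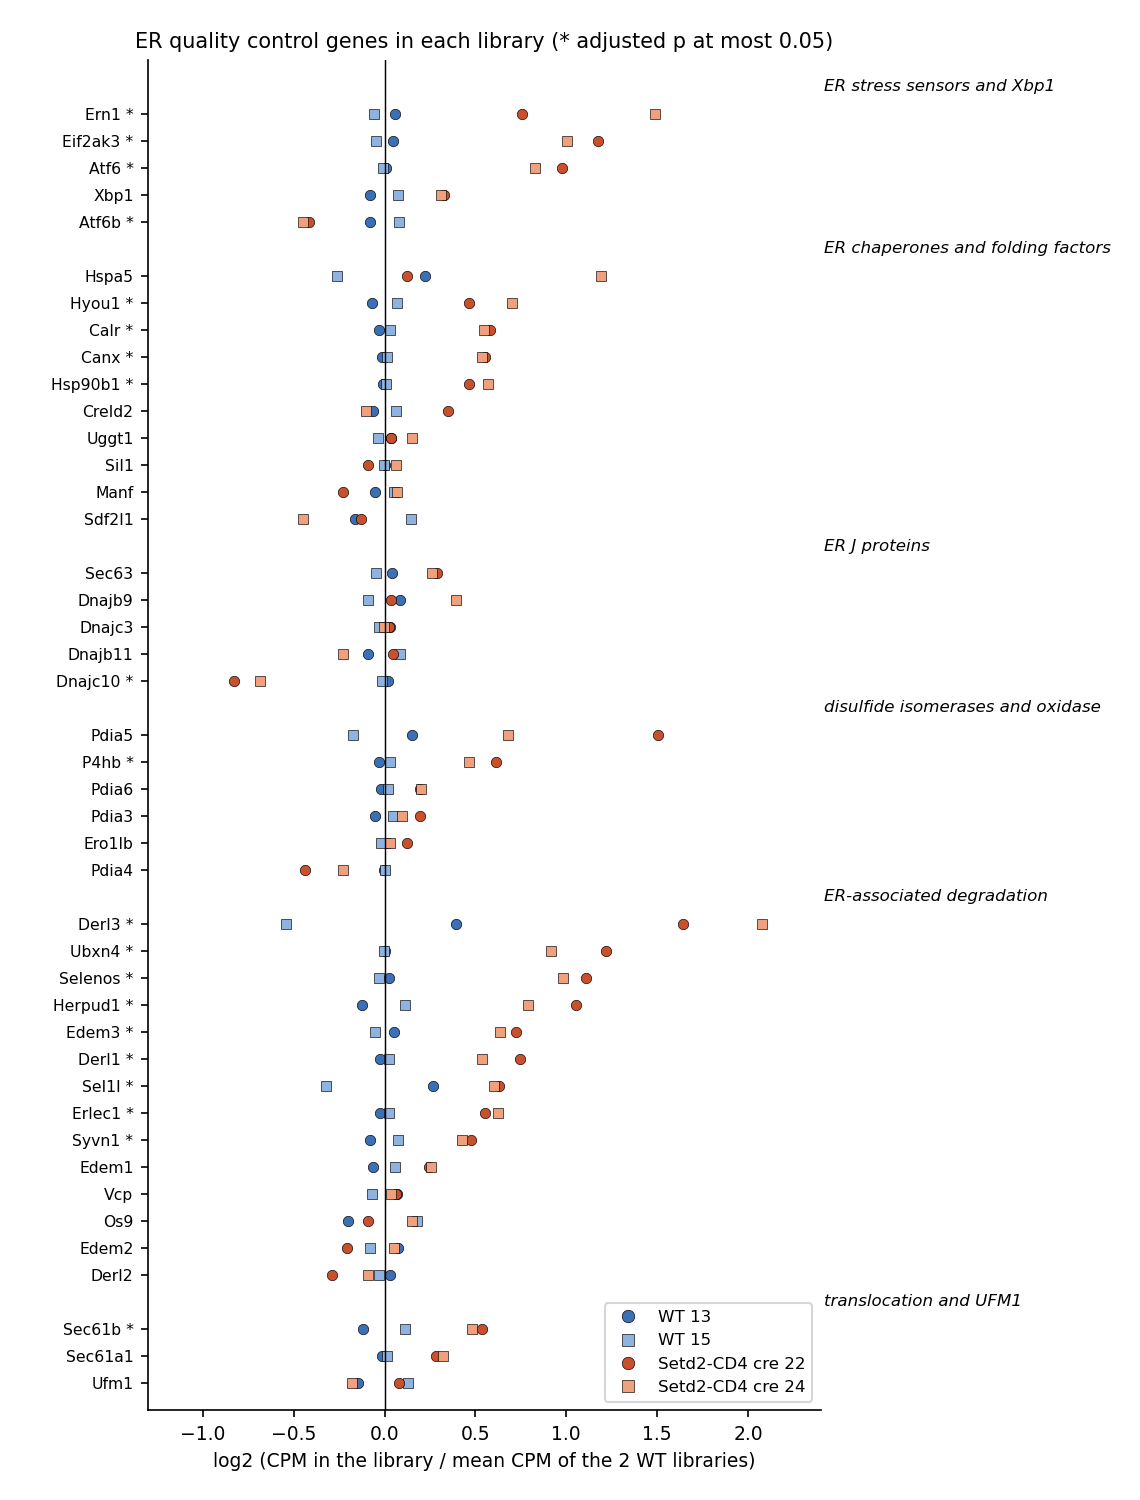
Level of each listed gene in each library relative to its mean over the WT libraries (log2 of the CPM ratio), grouped by role, with an asterisk for an adjusted p of at most 0.05; Pdia5 is drawn but was not tested. Points of Setd2-CD4 cre 22 and 24 lie to the right of both WT points for 25 of the 42 tested genes and to the left for 4; Hspa5 and Ern1 show the wide gaps between the mutant libraries described in the text.

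All 3 classical sensors rose in Setd2-CD4 cre. Eif2ak3, encoding PERK (chr6:70844515-70905245, GENCODE M21, GRCm38), stood at 79.8 and 74.5 CPM in the WT pair against 174 and 155 CPM in the mutant pair. Both mutant libraries were about equally high and well clear of WT, with a log2 fold change of 1.09 (SE 0.12, adjusted p = 0.00123 by edgeR). Atf6 (chr1:170704674-170867771) was at 76.2 and 75.2 CPM in the WT pair against 149 and 135 CPM in the mutant pair, again without overlap, a log2 fold change of 0.90 (SE 0.11, adjusted p = 0.00173 by edgeR). Ern1, encoding the kinase and nuclease IRE1 (chr11:106394650-106487852), was at 85.2 and 78.7 CPM in the WT pair against 138 and 229.7 CPM in the mutant pair. Its mutant libraries were both above WT but far apart, with 24 the highest, and the log2 fold change was 1.17 (SE 0.25, adjusted p = 0.0219 by edgeR). That call was lost without WT 13 (adjusted p = 0.0596), without WT 15 (0.0893) and when every gene with a count was kept (0.0526).

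Atf6b, the close relative of Atf6 (chr17:34647146-34655074), went the other way. It stood at 52.3 and 58.4 CPM in the WT pair against 41.5 and 40.5 CPM in the mutant pair, so that both mutant libraries were below both WT libraries. The log2 fold change was -0.43 (SE 0.13, adjusted p = 0.0368 by edgeR), and the call was lost with DESeq2 (0.0667), without WT 13 (0.128) and without WT 15 (0.312). Per length, the ratio of Atf6 to Atf6b FPKM was 0.591 and 0.522 in WT against 1.45 and 1.35 in the mutant libraries: Atf6b was the more abundant of the pair in both WT libraries and Atf6 in both mutant libraries. Xbp1 (chr11:5520659-5525893) was at 203 and 227 CPM in the WT pair against 269.5 and 267 CPM in the mutant pair. The mutant libraries were higher without overlap, but the log2 fold change of 0.32 (SE 0.11) missed the threshold (adjusted p = 0.0550 by edgeR). It passed without Setd2-CD4 cre 22 and without 24, where the replicate spread comes from the WT pair alone. Counts per gene do not separate spliced from unspliced Xbp1.

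**Figure D2:**
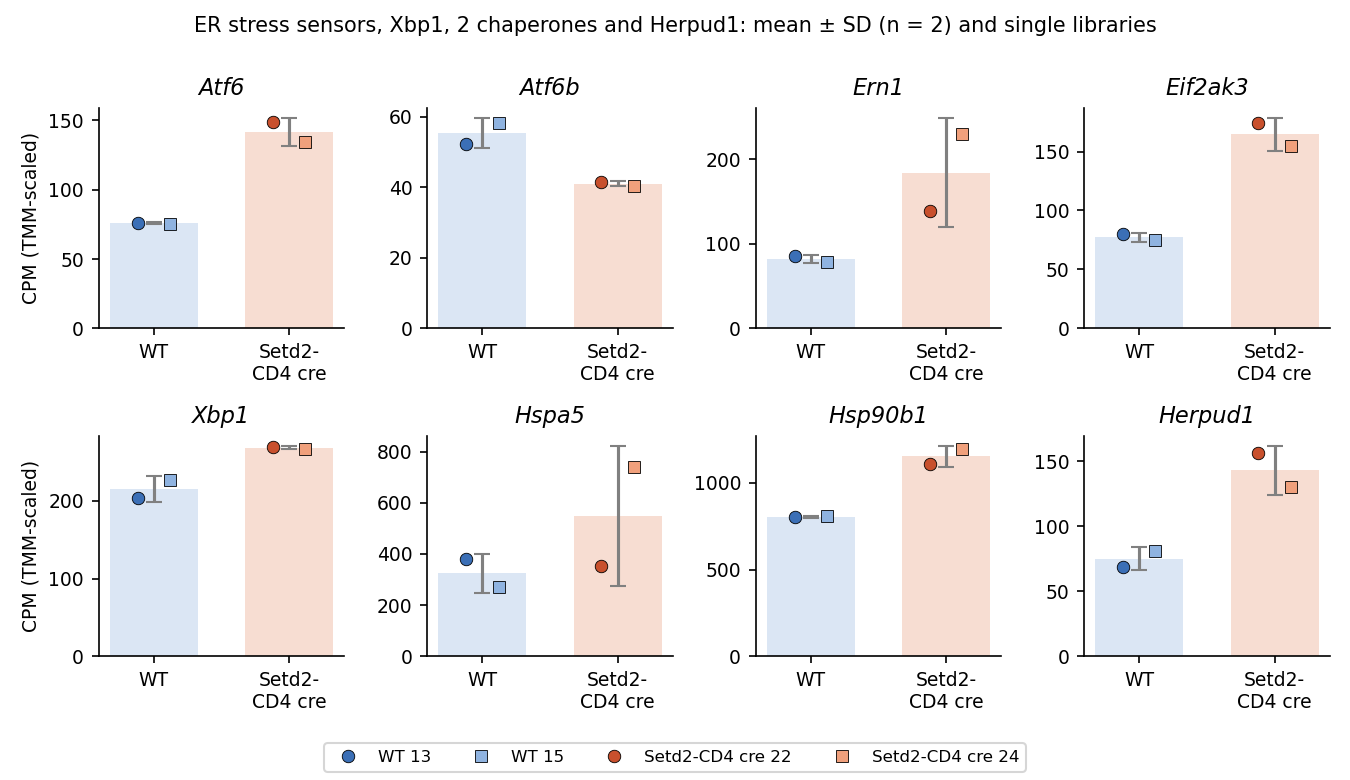
TMM-scaled CPM of the sensors, Xbp1, Hspa5, Hsp90b1 and Herpud1 in each library; each point is 1 library, each bar the mean of 2 and each whisker the SD. Eif2ak3 and Atf6 stand clear of WT in both Setd2-CD4 cre libraries, Atf6b lies below WT, and Hspa5 is high in Setd2-CD4 cre 24 at 741 CPM but within the WT range in 22 at 354 CPM.

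Of the 10 chaperones and folding factors, 4 rose (40%, beside 16.2% of all genes) and none fell. No other member of these 10 had an unadjusted p under 0.05. The 4 were the lectin pair that holds glycoproteins during folding, the ER member of the HSP90 family, and a nucleotide exchange factor of BiP. Calr, calreticulin, was at 539 and 559.9 CPM in the WT pair against 820.4 and 802 CPM in the mutant pair (log2 fold change 0.56, SE 0.11, adjusted p = 0.00931 by edgeR). Canx, its membrane-bound counterpart calnexin, was at 497 and 505 CPM in the WT pair against 733 and 726 CPM in the mutant pair (0.54, SE 0.11, adjusted p = 0.00968 by edgeR). Both lectins were tight within each genotype and did not overlap. Hsp90b1, GRP94, was at 802 and 808 CPM in the WT pair against 1111 and 1195 CPM in the mutant pair (0.52, SE 0.12, adjusted p = 0.0153 by edgeR). Hyou1, the exchange factor, was at 105 and 115 CPM in the WT pair against 152 and 178 CPM in the mutant pair (0.59, SE 0.12, adjusted p = 0.0109 by edgeR). All 4 had both mutant libraries above both WT libraries. None of the 4 calls held without WT 13 (adjusted p from 0.110 to 0.168) or without WT 15 (0.0587 to 0.174), and the call of Calr alone held in each alternative with all libraries. With cyclic loess scaling Canx (0.0516) and Hsp90b1 (0.0972) were lost. On the deposited FPKM with a pseudocount of 1 Hsp90b1 (0.0513) and Hyou1 (0.0650) were lost, and with a pseudocount of 0.1 the same genes were.

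Hspa5, encoding BiP, the chaperone that binds and restrains the sensors (chr2:34771970-34777547), did not pass the test. Its level was 378 and 271 CPM in the WT pair against 354 and 741 CPM in the mutant pair. Library 24 was far above the rest, while 22 lay between the WT libraries, so the genotypes overlapped. The log2 fold change was 0.75 with an SE of 0.44 (adjusted p = 0.282 by edgeR), and it was 1.20 without Setd2-CD4 cre 22 and 0.13 without 24. The mutant libraries differed 2.09-fold for Hspa5, a wide gap: of the 2607 tested genes at 100 CPM or more in that genotype, 14 (0.537%, Hspa5 included) spread as far or farther. The other uncalled members were close to WT: Manf at -0.07, Creld2 at 0.14, Sdf2l1 at -0.28, Sil1 at -0.01 and Uggt1 at 0.10 on the log2 fold change scale, with genotypes overlapping for each of the 5. Of these, Creld2 and Uggt1 were below 0 with library totals, and other sign changes of uncalled genes are given with the processing. Manf, a secreted factor, shares exonic bases with Dcaf1 and Rbm15b, and use of strand in the counting was not given in the sources used here.

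Among the 5 ER J proteins, the cochaperones that hand substrates to BiP, 1 fell (20%, beside 14.5% of all genes). No gene of the 5 was called higher by edgeR or DESeq2. Dnajc10, also called ERdj5, is a disulfide reductase that opens misfolded proteins for removal. It was at 147 and 144 CPM in the WT pair against 82.0 and 90.6 CPM in the mutant pair, so both mutant libraries were far below WT (log2 fold change -0.75, SE 0.11, adjusted p = 0.00319 by edgeR). Sec63, the translocon-associated J protein, was at 164 and 154 CPM in the WT pair against 194 and 190.6 CPM in the mutant pair, with an unadjusted p of 0.0287 and an adjusted p of 0.0761. It passed when either mutant library was left out, where the replicate spread comes from the WT pair alone. Dnajb9 (0.22), Dnajb11 (-0.09) and Dnajc3 (0.01) overlapped between genotypes. Per length, the FPKM ratio of Dnajc10 to Dnajc3 was 0.802 and 0.816 in WT against 0.449 and 0.506 in the mutant libraries.

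Of the 5 disulfide isomerases and oxidases that could be tested, 1 rose (20%, near the 16.2% of all genes). P4hb, the classical protein disulfide isomerase, was at 252 and 264 CPM in the WT pair against 394 and 356 CPM in the mutant pair, without overlap (log2 fold change 0.54, SE 0.11, adjusted p = 0.00975 by edgeR). The call was lost without WT 13 (0.114) and without WT 15 (0.0881), and with cyclic loess scaling (0.0508). Pdia4, a related isomerase, pointed down, at 134 and 134 CPM in the WT pair against 99.0 and 114 CPM in the mutant pair. Its log2 fold change of -0.33 (SE 0.12) missed the threshold with TMM factors (adjusted p = 0.0620 by edgeR). It passed with upper-quartile factors (-0.44, adjusted p = 0.0236 by edgeR) and library totals (-0.48, 0.0226). It also passed with cyclic loess and on the deposited FPKM with a pseudocount of 1 or 0.1. Without mutant 24 the log2 fold change was -0.43. Pdia3, the partner of calnexin and calreticulin, had a log2 fold change of 0.15 that was below 0 with library totals and cyclic loess, Pdia6 one of 0.20, and the oxidase Ero1lb one of 0.08. For Pdia5, the ratio of summed scaled counts was 2.20, with an exact 95% interval of 0.917 to 5.66 that covers counting error only.

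Of the 20 calls, 9 were degradation genes, with 9 of 14 higher (64.3%, beside 16.2% of all genes) and a median log2 fold change of 0.60. None was lower, by edgeR at an adjusted or unadjusted p under 0.05 or by DESeq2. At the ubiquitin ligase complex, Sel1l is the adaptor, Syvn1 (HRD1) the ligase and Herpud1 a stress-induced organiser. Herpud1 (chr8:94386438-94395377), whose ERSE-II is printed above, was at 69.1 and 81.4 CPM in the WT pair against 156 and 130.0 CPM in the mutant pair (log2 fold change 0.93, SE 0.14, adjusted p = 0.00334 by edgeR). Both mutant libraries were well above WT. Syvn1 was at 36.1 and 40.3 CPM in the WT pair against 53.2 and 51.4 CPM in the mutant pair (0.45, SE 0.13, adjusted p = 0.0327 by edgeR), also without overlap. Syvn1 shares exonic bases with Mrpl49, and its call was kept in 6 of the 12 alternatives. It was lost with upper-quartile factors (0.0803), library totals, the deposited FPKM with a pseudocount of 1 or 0.1, and either WT library left out. Sel1l was at 102 and 68.1 CPM in the WT pair against 132 and 129 CPM in the mutant pair (0.62, SE 0.19, adjusted p = 0.0456 by edgeR). The WT libraries were apart and the call was the weakest of the 20, kept in 3 of the 12 alternatives. It was lost with upper-quartile factors (0.0721), library totals, cyclic loess and a filter of 10 CPM in 2 libraries (0.0515). It was also lost on the deposited FPKM with a pseudocount of 1 or 0.1, and when WT 15, mutant 22 or mutant 24 was left out.

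The membrane and extraction components followed. Selenos, a selenoprotein that links the ER membrane to the VCP ATPase, was at 35.9 and 34.6 CPM in the WT pair against 76.1 and 69.5 CPM in the mutant pair (log2 fold change 1.05, SE 0.12, adjusted p = 0.00157 by edgeR). Ubxn4, another membrane anchor of VCP, was at 141 and 139.9 CPM in the WT pair against 327 and 265 CPM in the mutant pair (1.07, SE 0.13, adjusted p = 0.00156 by edgeR). For both anchors the mutant libraries were about double the WT level and did not overlap it. Derl1, a derlin of the retrotranslocation channel, was at 111 and 115 CPM in the WT pair against 189 and 164 CPM in the mutant pair (0.65, SE 0.12, adjusted p = 0.00620 by edgeR). Derl3, the low-abundance derlin, had 21 and 11 counts in the WT pair against 39 and 56 in the mutant pair, or 1.60 and 0.838 CPM against 3.80 and 5.13 CPM. It had the largest fold change of the list at the second lowest level (log2 fold change 1.87, SE 0.43, adjusted p = 0.0153 by edgeR), and the ratio of summed scaled counts was 3.68 with an exact 95% interval of 2.44 to 5.68 that covers counting error only and not the gap between the WT libraries. Derl2 was at -0.19 and did not pass. Its exons overlap Mis12, which was lower (-1.05).

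Of the lectins and mannosidases that pick out misfolded glycoproteins, 2 rose. Edem3, a mannose-trimming factor, was at 61.6 and 57.3 CPM in the WT pair against 98.1 and 92.3 CPM in the mutant pair (log2 fold change 0.68, SE 0.11, adjusted p = 0.00497 by edgeR). Erlec1, a lectin that reads trimmed glycans, was at 39.9 and 41.3 CPM in the WT pair against 59.4 and 62.5 CPM in the mutant pair (0.59, SE 0.12, adjusted p = 0.0106 by edgeR). In both, the genotypes did not overlap. Edem1 (0.25), Edem2 (-0.07), the lectin Os9 (0.03) and the ATPase Vcp itself (0.05) did not pass. Edem1 did so when either mutant library was left out, where the replicate spread comes from the WT pair alone. The difference between paralogs was not tested, but per length the FPKM ratio of Edem3 to Edem2 was 0.481 and 0.497 in WT against 0.932 and 0.731 in the mutant libraries, and that of Derl1 to Derl2 was 4.72 and 5.08 against 10.05 and 7.58. Without WT 15, 3 of the 14 degradation genes were called (Herpud1, Selenos and Ubxn4), and without WT 13, 6 were. The calls of Derl1 (0.0595) and Erlec1 (0.105) were lost without WT 13, and those of Derl1 (0.0534), Erlec1 (0.0900), Edem3 (0.0692) and Derl3 (0.109) without WT 15.

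Of the 3 translocation and UFM1 genes, 1 rose (33.3%, beside 16.2% of all genes). This was Sec61b, the small subunit of the protein-conducting channel. It was at 24.5 and 28.7 CPM in the WT pair against 38.6 and 37.1 CPM in the mutant pair, with the mutant libraries higher (log2 fold change 0.51, SE 0.15, adjusted p = 0.0326 by edgeR). The call was kept in 6 of the 12 alternatives. It was lost with upper-quartile factors (0.0733), library totals, the deposited FPKM with a pseudocount of 1 or 0.1, and either WT library left out. Sec61a1, the channel itself, was at 185 and 189 CPM in the WT pair against 228 and 233 CPM in the mutant pair. Its log2 fold change of 0.30 (SE 0.10) just missed the threshold (adjusted p = 0.0526 by edgeR). It passed when either mutant library was left out, where the replicate spread comes from the WT pair alone. Ufm1, a ubiquitin-like modifier attached to ribosomes at the ER, was at -0.05.

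Deposited FPKM values, which are scaled by gene length and library total, allow levels to be ordered across genes. In WT the most abundant were Hsp90b1 (mean 157 FPKM), Calr (136), Pdia3 (134), P4hb (71.9) and Canx (69.8), and the same 5 led in Setd2-CD4 cre in the same order. The means of Calr and Pdia3 in WT did not differ beyond their spread, since Calr was at 133 and 139 FPKM and Pdia3 at 128 and 139 FPKM. Syvn1 (3.68), Derl3 (0.959) and Pdia5 (0.200) were the lowest. Places moved by 10 or more for 6 genes: Ern1 went from 36 to 23, Eif2ak3 from 31 to 19, Selenos from 29 to 18 and Atf6 from 35 to 25, while Dnajc10 went from 15 to 26 and Atf6b from 22 to 35. The ratio of Hsp90b1 to Hspa5, a pair of abundant lumenal chaperones, was 2.73 and 3.84 in WT against 4.04 and 2.08 in the mutant libraries, and so did not order the genotypes.

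**Figure D3:**
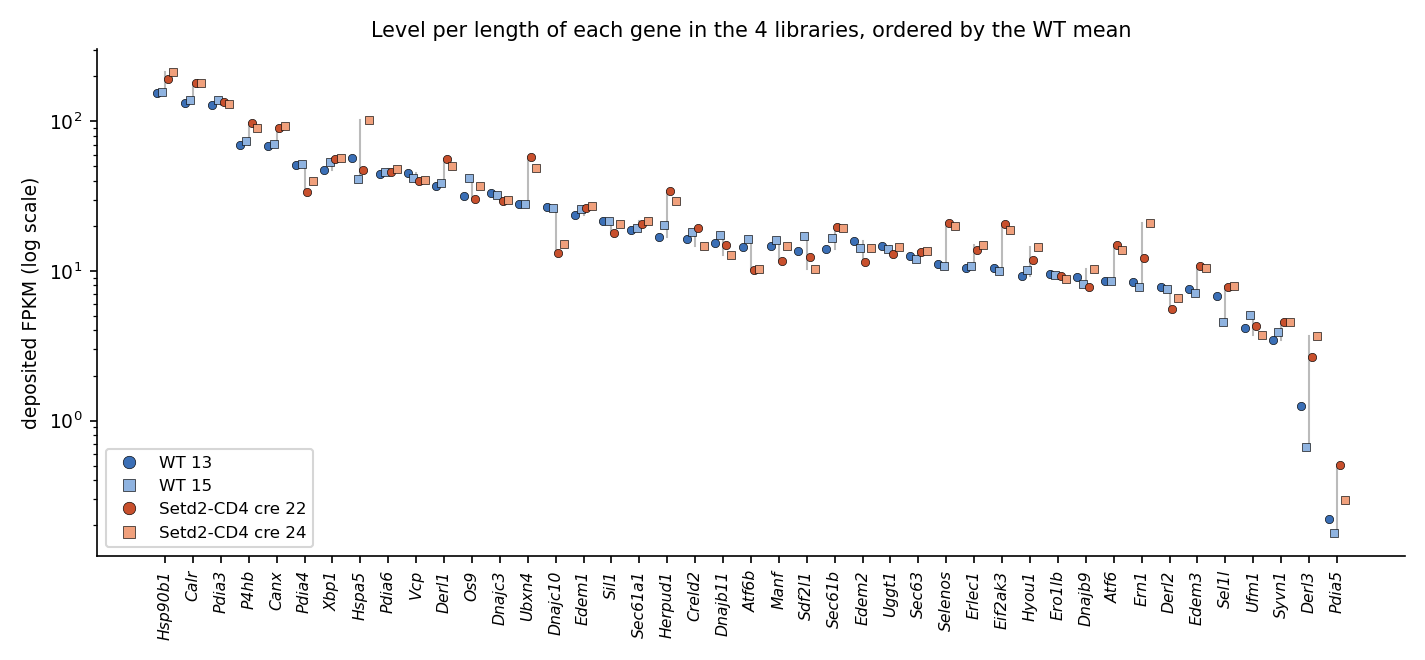
Deposited FPKM of each listed gene per library on a log axis, ordered by the WT mean. Hsp90b1, Calr, Pdia3, P4hb and Canx are the 5 highest in both genotypes and Derl3 and Pdia5 the lowest; Dnajc10 and Atf6b lie below WT in both Setd2-CD4 cre libraries.

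Replicates of the listed genes were close. The median fold between the WT libraries was 1.07 over the list, beside 1.10 over all tested genes, and between the Setd2-CD4 cre libraries 1.10 beside 1.17. In each genotype 2 of the 42 genes differed over 1.5-fold between replicates, which was 4.76%, against 8.90% and 16.2% of all genes.

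Other genes of the same pathways were read from lists by function. Among eIF2 kinases and genes downstream of PERK, 4 of 17 rose (23.5%) and 2 fell (11.8%), beside 16.2% and 14.5% of all genes. Fewer fell with either WT library left out. Atf4, the transcription factor whose translation eIF2 phosphorylation favours, had a log2 fold change of 1.45 (SE 0.14, adjusted p = 0.00106 by edgeR), and Ppp1r15a, the phosphatase subunit that restores translation, one of 2.15 (SE 0.23, adjusted p = 0.00210). Eif2ak2, the kinase PKR that acts on the same factor, fell by 1.19 on the log2 scale (SE 0.16, adjusted p = 0.00232). The call of Ppp1r15a was lost without Setd2-CD4 cre 22 (0.153) and without 24 (0.145). The list for sensor processing and other ER-bound factors also holds Bbc3, a pro-apoptotic BH3 protein, and the nuclear factors Nfya, Nfyb and Nfyc. Of its 14 tested genes, 1 rose and 1 fell (7.14% each). These were Bbc3 at 0.68 (SE 0.13, adjusted p = 0.00872 by edgeR) and Creb3l1, an ER-bound transcription factor, at -1.01 (SE 0.28, adjusted p = 0.0316). Traf2, an adaptor recruited by IRE1, was at 0.38 (adjusted p = 0.0617). No gene of these 14 was higher without WT 15, 4 were without mutant 24, and none was lower with DESeq2, without WT 13 or without WT 15.

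For protein entry, 4 of 22 translocon and signal peptidase genes rose (18.2%, near the 16.2% of all genes). They included Srpr (0.84), the receptor of the signal recognition particle, Ssr3 (1.03) and Srp72 (0.58), with edgeR adjusted p of 0.00200, 0.00242 and 0.00677. Fewer were called with either WT library left out, and more without mutant 24. Of the 27 glycosylation genes, 2 were higher, 6 lower (22.2%, beside 14.5% of all genes) and 19 not called. The glucosyltransferases Alg6 and Alg8, which finish the sugar precursor, were lower, at -1.24 (SE 0.18, adjusted p = 0.00332) and -0.96 (SE 0.17, adjusted p = 0.00635), and Prkcsh, a subunit of glucosidase II, was higher at 0.49 (adjusted p = 0.0108). Without WT 13, 3 of the 27 were lower, and without WT 15 1 was, with none higher in either case. The list of other oxidoreductases also holds the prolyl isomerases Fkbp2, Fkbp7, Fkbp14 and Ppib. Of its 21 tested genes 2 rose (9.52%) and 6 fell (28.6%), with Erp44 at 0.71, Qsox2 at -0.92 and the oxidase Ero1l at -0.44 (edgeR adjusted p = 0.0202, 0.0208 and 0.0228). The lower calls were lost with either WT library left out.

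Of 29 other degradation factors, 10 rose (34.5%, beside 16.2% of all genes) and 2 fell (6.9%, beside 14.5%), with a median log2 fold change of 0.33. Herpud2, the paralog of Herpud1, was at 0.98 (SE 0.15, adjusted p = 0.00359 by edgeR) and Ubxn6 at 0.86 (SE 0.15, adjusted p = 0.00567), while Faf2, which recruits VCP to the ER membrane, was at -0.79 (SE 0.12, adjusted p = 0.00331). The number higher was 6 with upper-quartile factors, 4 with library totals, 3 without WT 13 and 1 without WT 15. In the UFM1 cascade 2 of 6 rose (33.3%), among them the ligase Ufl1 (0.54, adjusted p = 0.0120 by edgeR), with Cdk5rap3 at 0.31 (adjusted p = 0.0929). These calls were lost with either WT library left out, and more genes were called without Setd2-CD4 cre 24. In selective ER autophagy 2 of 10 rose (20%, near the 16.2% of all genes). These were Ccpg1 (0.94, adjusted p = 0.00370 by edgeR) and Fam134a (0.43, adjusted p = 0.0246), with Fam134b at 0.36 (adjusted p = 0.0559). That count was 1 without WT 13 or without WT 15, 4 without mutant 22 and 5 without mutant 24.

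The list labelled cytosolic heat shock proteins, mostly chaperones that act outside the ER, had the highest share. It also holds the mitochondrial chaperonins Hspd1 and Hspe1 and the transcription factors Hsf1 and Hsf2. Of its 18 genes 16 rose (88.9%), with a median log2 fold change of 1.08. The number higher was 12 with upper-quartile factors and with library totals, and it also dropped with either WT library left out. Hsph1 was at 2.17, Hspa1l at 4.63 and Hspa1a at 4.56 (edgeR adjusted p = 0.000322, 0.000695 and 0.000695), where Hspa1a has a near-identical copy. The summed level of the list was 4418 and 4355 CPM in the WT pair against 8893 and 7213 CPM in the mutant pair. As a share of all counts it was 0.463% and 0.461% in WT against 0.829% and 0.695% in the mutant pair. The deposited pathway named protein processing in the endoplasmic reticulum holds 35 of the listed genes. Of its 115 other tested genes, 32 rose (27.8%) and 11 fell (9.57%), with a median of 0.16. Leaving out the cytosolic heat shock list too, 22 of 105 rose (21%) and 11 fell (10.5%), with a median of 0.09. Among all genes 16.2% were higher and 14.5% lower.

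**Figure D4:**
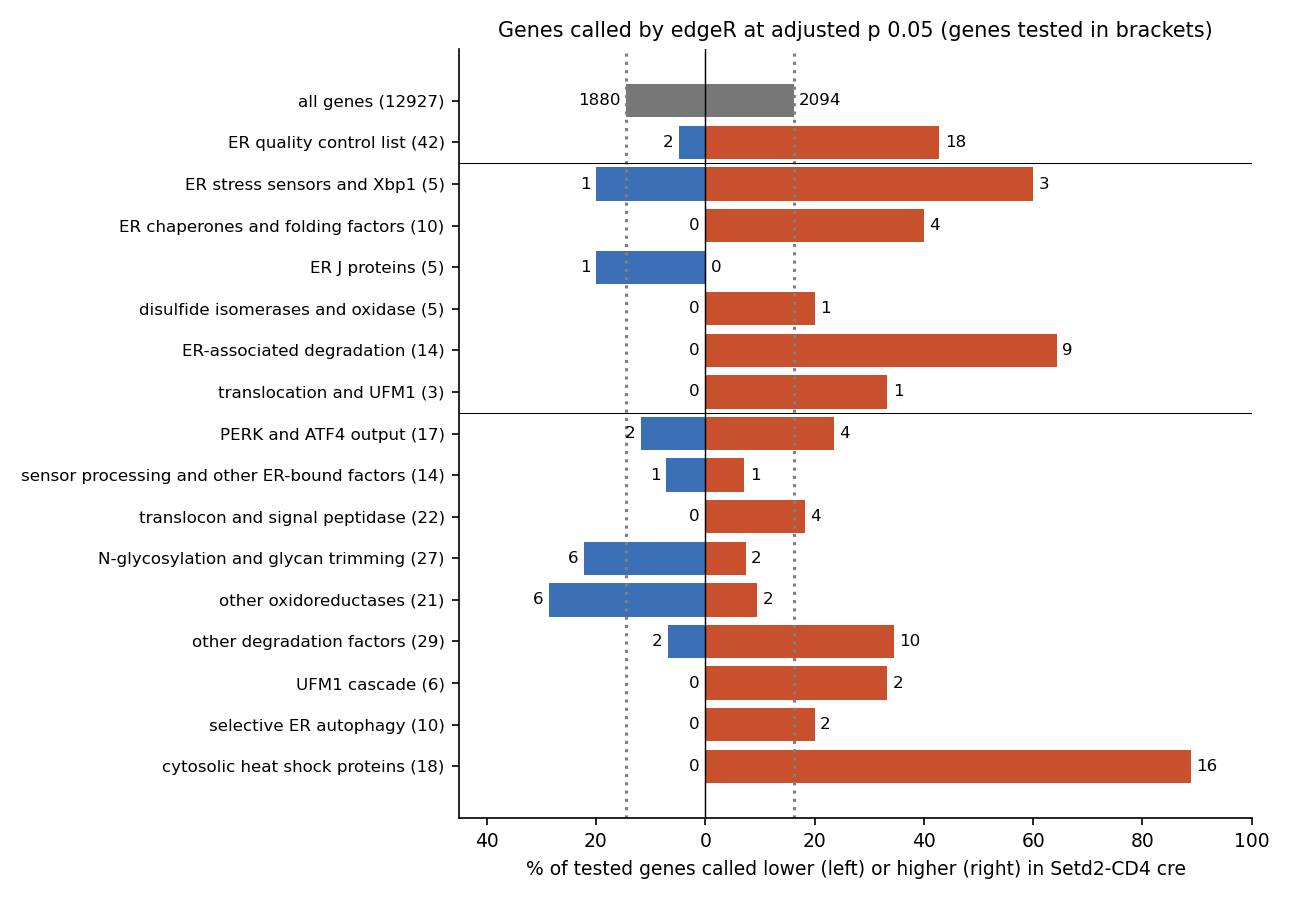
Percent of tested genes called higher and lower in Setd2-CD4 cre for each role in the list and for each neighbouring list, with counts beside the bars and dotted lines at the shares of all 12927 genes (16.2% higher, 14.5% lower). ER-associated degradation, with 9 of 14 higher, and cytosolic heat shock proteins, with 16 of 18, have the largest shares higher among the lists with over 5 genes; glycosylation, with 6 of 27 lower, and other oxidoreductases, with 6 of 21, have more lower than higher.

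Plasma cells carry a large ER, and markers of this and other cell types were read beside the list. Of 11 plasma cell markers tested, 6 were higher and 1 lower, with sums of 136 and 171 CPM in the WT pair against 242 and 196 CPM in the mutant pair. The called ones were mostly immunoglobulin genes, with log2 fold changes of 2.78 for Igkc, 3.18 for Ighg3, 2.45 for Igha, 2.43 for Ighg2b and 1.67 for Ighg1 (adjusted p from 0.00157 to 0.0116 by edgeR). The sums are mostly Tnfrsf13b, which was the one lower, and Txndc5, which did not pass. Tnfrsf17 had no count in any library, Jchain was at 0.229 to 0.779 CPM, and Sdc1 did not pass the test. Mzb1, an ER protein of B and plasma cells, was at 2.44 and 2.06 CPM in the WT pair against 21.8 and 10.1 CPM in the mutant pair. The B cell sum was highest in Setd2-CD4 cre 22, where single B cell markers were 1.20-fold (Ighm) to 2.53-fold (Fcrla) higher than in 24. Of the 18 listed genes that rose, 13 were higher in 22 than in 24, by 1.01-fold (Canx) to 1.23-fold (Ubxn4). Eif2ak3, Atf6, Herpud1 and Selenos were among these. Ern1, Hsp90b1, Hyou1, Derl3 and Erlec1 were higher in 24. Over all tested genes the median log2 ratio of 24 to 22 was 3.42e-05. TMM scaling holds this median near 0, so it cannot show whether either library was generally higher. The median fold between these libraries, in either direction, was 1.17 over all tested genes. Macrophage markers were low in every library (26.1 to 34.5 CPM summed over 8), with 1 of 5 tested lower. Of 5 dendritic cell markers tested, 3 were higher and none lower: Flt3 (2.28, adjusted p = 0.00659), H2-Ab1 (1.15, 0.00464) and Batf3 (0.67, 0.0291). Over all 8 listed, dendritic cell markers summed to 53.8 and 54.8 CPM in the WT pair against 109 and 96.5 CPM in the mutant pair, with Siglech at 0 throughout and Xcr1 and Clec9a at 0 in both mutant libraries. The CD8 T and NK cell markers, 3 of 7 higher (Klrd1, Klre1 and Gzma), summed to 240 and 260 CPM in WT and to 523 and 326 CPM in the mutant libraries. Among 14 T cell and Th17 markers 5 were higher (35.7%), Il17a among them, and 4 lower (28.6%), beside 16.2% and 14.5% of all genes. The lower ones were the CD3 chain genes Cd3e, Cd3d and Cd3g and the T cell receptor gene Trac. The sums over the 14 were 3703 and 3584 CPM in WT and 3586 and 3942 CPM in the mutant libraries. As a share of all counts they were 0.388% and 0.379% in WT and 0.334% and 0.380% in the mutant libraries. The part of these cells in the results was not tested.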

How the data were processed

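The authors deposited whole-number read counts and FPKM values per gene for 4 libraries, per the file headers. Bowtie2, RSEM, GRCm38.p6 and mm10 are named in the submitters' processing notes, without versions; rounding of counts and use of strand: not given in the sources used here. Gene coordinates are the deposited ones, which equal those of GENCODE M21 (GRCm38) for 34 of the 43 genes, those with a printed position among them.

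edgeR 4.0.16 (R 4.3.3; TMM factors, filterByExpr, robust quasi-likelihood fit) was run on the unmodified counts of all genes, with Benjamini-Hochberg adjustment and a threshold of 0.05. A count of 0 allows up to 3 counts, or 0.228 to 0.292 CPM. Chi-square over degrees of freedom between replicates was 8.27 (WT) and 17.4 (Setd2-CD4 cre), so no library was a copy. Alternatives used DESeq2 1.42.0, limma 3.58.1 with voom and cyclic loess, limma on log2(FPKM + 1) and log2(FPKM + 0.1), other scalings and filters, and each library left out. Scripts were tested on simulated data. All listed genes are accounted for; neighbouring lists name the 3 genes with the smallest p, except that a gene this rule selects is not reported here. The genes and lists were chosen with earlier results of these data known. Protein features were not analysed here.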

Additional observations from a re-analysis of the deposited data

How the results depend on the processing

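Calls rest on 2 libraries a group; leaving one out assumes that the lone sample varies like the other group. No paired analysis was possible because the genotypes share no replicate number. Of the 20 called genes, 6 kept their call in all 12 alternatives and 11 in every one run on them that used all libraries (Derl3 was not tested with the 10 CPM filter, which leaves 10 tested in each); no called gene changed direction. Genes called higher were 13 to 18 with all libraries and 5 to 21 with 1 left out; genes lower were 1 with DESeq2 and 1 to 3 with 1 left out. The median was 0.18 (upper quartile), 0.14 (library totals), 0.19 (cyclic loess), 0.25 (10 CPM filter), 0.13 (FPKM + 1), 0.14 (FPKM + 0.1) and 0.29 to 0.32 with 1 library left out. For all genes, 31.6% and 32.2% of calls were higher with FPKM + 1 and FPKM + 0.1. The causes were not tested.

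Of the 22 uncalled genes, 12 changed sign somewhere (log2 fold changes follow). With upper-quartile factors, values were Dnajc3 -0.102, Ero1lb -0.0344, Os9 -0.0783, Uggt1 -0.0153 and Vcp -0.0626. With library totals, values were Creld2 -0.0134, Dnajc3 -0.142, Ero1lb -0.075, Os9 -0.116, Pdia3 -0.0068, Uggt1 -0.0544 and Vcp -0.103. With cyclic loess, values were Dnajc3 -0.149, Os9 -0.105, Pdia3 -0.0778, Sil1 0.0276, Ufm1 0.0431, Uggt1 -0.0862 and Vcp -0.135. With the 10 CPM filter, values were Dnajc3 -0.0114. With FPKM + 1, values were Creld2 -0.0232, Dnajc3 -0.138, Ero1lb -0.0678, Os9 -0.107, Pdia3 -0.0059, Uggt1 -0.0525 and Vcp -0.0993. With FPKM + 0.1, values were Creld2 -0.025, Dnajc3 -0.142, Ero1lb -0.0743, Os9 -0.11, Pdia3 -0.0059, Uggt1 -0.056 and Vcp -0.101. With 1 library left out in turn, the ranges were Creld2 -0.0926 to 0.352, Dnajb11 -0.222 to 0.0487, Dnajc3 -0.0232 to 0.0342, Edem2 -0.206 to 0.061, Manf -0.224 to 0.0772, Os9 -0.148 to 0.234, Sil1 -0.0906 to 0.0712, Ufm1 -0.183 to 0.0942 and Vcp -0.0215 to 0.114.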

Other observations

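Outside the list, 27 genes had an ERSE in the promoter window, of which 20 were in the deposited table and 8 were tested. Of these 8, 2 rose and 1 fell, where 16.2% of all tested genes were higher and 14.5% lower. Pan2, a poly(A) nuclease subunit, was at 109 and 96.9 CPM in the WT pair against 194 and 182 CPM in the mutant pair (log2 fold change 0.87, SE 0.11, adjusted p = 0.0020 by edgeR). Hnrnpa3, an RNA-binding protein, was at 41.3 and 58.9 CPM in the WT pair against 105 and 90.1 CPM in the mutant pair (0.96, SE 0.18, adjusted p = 0.00864 by edgeR). Adcy3, an adenylate cyclase, fell from 21.8 and 24.2 CPM to 11.4 and 15.3 CPM (-0.78, SE 0.19, adjusted p = 0.0196 by edgeR). These genes were named after their values were seen.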
